A study of Mus musculus with 4 samples.

Results

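Glypicans and syndecans are the cell surface core proteins that carry heparan sulfate, and 9 of their genes were followed across 4 RNA-seq libraries of mouse embryonic fibroblasts (MEF). The members were the glypican genes *Gpc1*, *Gpc2*, *Gpc3*, *Gpc4* and *Gpc6* and the syndecan genes *Sdc1*, *Sdc2*, *Sdc3* and *Sdc4*, which are 9 of the 25731 genes that could be named in the deposited table. They were chosen by gene family, and *Gpc3* was singled out because its value was higher in the *Hmga2*-/- Ctrl library. The genotype values under Ctrl, and the *Gpc3* change on TGFB1 in *Hmga2*-/- MEF, are therefore given as a description. The wild type (*Hmga2*+/+) and knockout (*Hmga2*-/-) MEF were C57BL/6 cells from the trunk of embryos at day 15.5, immortalized with simian virus SV40. The cells were kept overnight in medium with 1% FCS and then received either water (Ctrl) or human recombinant TGFB1 (10 ng/ml), in both cases for 24 h. The genotype field of the labels reads Hmga-/- and the titles read Hmga2-/-. Each of the 4 conditions has 1 column of RPKM, the reads on the exons of a transcript scaled to its length and to the mapped reads of the library. The error between replicates therefore cannot be given, and no p-value was computed. Since each genotype is represented by its own immortalized culture, an effect of *Hmga2* and a difference between cultures cannot be told apart. In these bulk libraries, fewer cells that express a gene and less RNA per cell cannot be told apart either.

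Glypicans are tied to the outer face of the plasma membrane by a lipid anchor, whereas syndecans span the membrane and end in a short cytoplasmic tail that binds PDZ proteins and the cytoskeleton. The heparan sulfate chains on both bind growth factors, morphogens and matrix proteins, and so set how much of a ligand reaches its receptor. In fibroblasts, syndecan-4 acts together with integrins at focal adhesions, and glypican-3 is known as a brake on embryonic growth whose loss causes an overgrowth syndrome. TGFB1 is a cytokine that turns fibroblasts into matrix-producing, contractile cells.

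The derived depth was 56140000 to 57300000 mapped reads per library. *Hmga2* was listed at 14.8 RPKM in *Hmga2*+/+ Ctrl and at 40.7 RPKM in *Hmga2*+/+ TGFB1. Not 1 read fell on it in either of the *Hmga2*-/- libraries. *Smad7*, the inhibitory Smad induced by TGFB1, stood at 6.40 RPKM without and 10.6 RPKM with TGFB1 in *Hmga2*+/+ MEF, and at 6.67 and 14.6 RPKM in *Hmga2*-/- MEF. The fibroblast markers were present, with 8 of 8 at a mean of at least 1 RPKM and summed levels of 1874 to 2263 RPKM. Of the epithelial markers 0 of 5 reached that mean, and their sum ran from 0.411 to 1.04 RPKM. Of the muscle markers 0 of 4 reached it, with *Myod1*, *Myog* and *Myf5* at 0 reads and sums of 0 to 0.052 RPKM. Leukocyte markers reached it in 1 of 4 (*Cd68*), with sums of 1.29 to 1.66 RPKM, and the defining marker *Ptprc* was at 0 in both *Hmga2*+/+ libraries and at most 0.007 RPKM. Of the endothelial markers 2 of 5 (*Kdr* and *Tek*) did so. Their sum was 3.89 and 4.86 RPKM in *Hmga2*+/+ Ctrl and TGFB1 and 7.12 and 8.16 RPKM in *Hmga2*-/- Ctrl and TGFB1, with opposite changes on TGFB1 in the 2 expressed members. *Kdr* had 1.11 and 4.46 RPKM in *Hmga2*+/+ Ctrl and TGFB1 and 1.46 and 7.39 RPKM in *Hmga2*-/- Ctrl and TGFB1. *Tek* had 2.75 and 0.33 RPKM and 5.65 and 0.686 RPKM in the same libraries, while *Pecam1* stayed between 0.018 and 0.03 RPKM, *Cdh5* was at most 0.048 RPKM and *Emcn* was at 0 in 3 libraries. The neural list reached 19.4 and 23.9 RPKM in the *Hmga2*+/+ and *Hmga2*-/- Ctrl libraries and 11.8 and 13.7 RPKM in the corresponding TGFB1 libraries, mostly from *Map2*, with *Sox10* at 0 in 3 libraries. The part of these marker changes in the results that follow was not tested.

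All 9 members were expressed, with means over the 4 libraries from 1.57 RPKM for *Gpc2* to 69.7 RPKM for *Sdc4*. RPKM is scaled by length, so levels can be set side by side between genes. *Sdc2*, *Sdc4* and *Gpc4* formed a high group at 35.5 to 91.2 RPKM in each library, *Sdc1* and *Gpc1* lay between 10.6 and 21.7 RPKM, and *Gpc2*, *Gpc3*, *Gpc6* and *Sdc3* lay between 1.13 and 11.8 RPKM. In the *Hmga2*+/+ Ctrl library the order from high to low was *Sdc2*, *Gpc4*, *Sdc4*, *Sdc1*, *Gpc1*, *Gpc6*, *Gpc3*, *Sdc3* and *Gpc2*. Within that order the exact 95% Poisson intervals of *Gpc4* (54.6 to 57.2 RPKM) and *Sdc4* (53.5 to 56.0 RPKM) overlapped, as did those of *Sdc3* (2.302 to 2.676 RPKM) and *Gpc2* (2.13 to 2.65 RPKM). The intervals of the other neighbours did not overlap. In the *Hmga2*-/- Ctrl library *Gpc3* stood at rank 5 instead of rank 7, with an interval that overlapped that of *Gpc1*. Intervals here cover the counting error of the reads within a library and no biological spread. *Gpc5*, the remaining glypican gene, lies beside *Gpc6* on chromosome 14 and had 0 reads in each of the 4 libraries, where 3 reads would have given 0.0182 to 0.0186 RPKM.

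**Figure D1:**
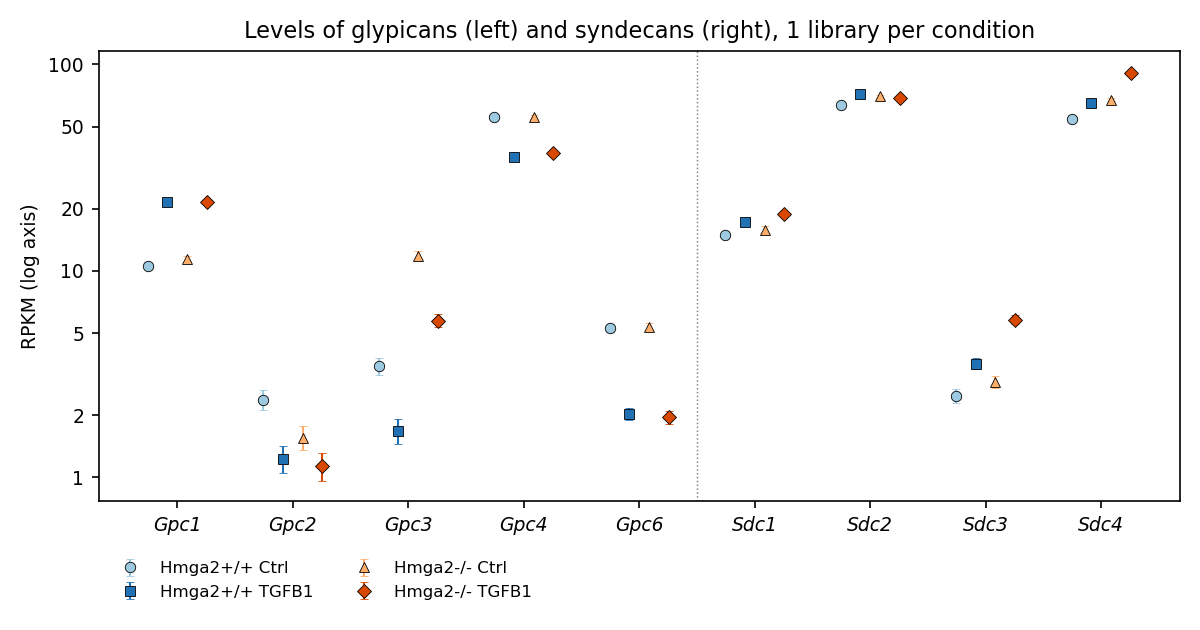
RPKM of each member gene on a log axis in the 4 libraries (1 library per condition), with bars for the exact 95% Poisson interval of the reads. *Sdc2*, *Sdc4* and *Gpc4* stand above the other members in each library. *Gpc3* differs most between libraries, by 7.08-fold from the lowest to the highest. Its highest library is *Hmga2*-/- Ctrl, whose value was used to single it out.

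The first question of the design is how TGFB1 changes expression in *Hmga2*+/+ and in *Hmga2*-/- MEF. A gene is said here to rise or fall when its RPKM changed at least 1.5-fold between 2 libraries, the limit that the study uses. In *Hmga2*+/+ MEF 4 of 5 glypicans fell and *Gpc1* rose, while 0 of 4 syndecans rose or fell. In *Hmga2*-/- MEF 3 of 5 glypicans fell and *Gpc1* rose again, and among the syndecans *Sdc3* rose. Over the 9 members this is 4 lower (44.4%) and 1 higher (11.1%) in *Hmga2*+/+ MEF, where 15.8% of the 10727 genes whose mean reached 1 RPKM were lower and 11.6% higher. In *Hmga2*-/- MEF 3 members were lower (33.3%) and 2 higher (22.2%), against 14.2% lower and 13.4% higher among all those genes. The lower members there include *Gpc3*, whose fall is measured from the *Hmga2*-/- Ctrl value used to single it out, and *Gpc4* at 1.501-fold. That choice favours a fall, so nothing is read from the *Hmga2*-/- count of lower members. For the glypicans the median log2 change was -0.95 in the wild type and -0.59 in the knockout. For the syndecans these medians were 0.23 and 0.34, and over all genes they were -0.04 and 0.02. All 9 members passed the limit of 1 RPKM on the mean. These counts describe 4 libraries and were not tested.

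*Gpc1* encodes glypican-1, the glypican known as a coreceptor for fibroblast growth factors, and its table transcript (uc007cbs.1) lies at chr1:92831686-92860196 on the plus strand of mm10. It had 10.6 RPKM in *Hmga2*+/+ Ctrl, 21.5 in *Hmga2*+/+ TGFB1, 11.4 in *Hmga2*-/- Ctrl and 21.7 in *Hmga2*-/- TGFB1. Both TGFB1 libraries stood at about the same level, above both Ctrl libraries. The log2 change on TGFB1 was 1.02 (exact 95% counting interval 0.94 to 1.09) in *Hmga2*+/+ and 0.93 (0.86 to 1.00) in *Hmga2*-/- MEF. Between the genotypes the log2 difference was 0.10 (0.01 to 0.19) under Ctrl and 0.01 (-0.05 to 0.07) under TGFB1, where it became -0.02 with libraries rescaled by their median ratio.

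*Gpc6* encodes glypican-6, which promotes cartilage growth and is mutated in omodysplasia, and it had the largest TGFB1 change among the members in either genotype. Its transcript (uc007uyk.2) spans 1054233 bases at chr14:116925297-117979529 on the plus strand, of which 6761 are exonic. The values were 5.31 RPKM in *Hmga2*+/+ Ctrl, 2.03 in *Hmga2*+/+ TGFB1, 5.33 in *Hmga2*-/- Ctrl and 1.961 in *Hmga2*-/- TGFB1. The 2 genotypes were nearly superimposed at either treatment, and TGFB1 lowered the level 2.62-fold and 2.72-fold. The log2 change was -1.39 (-1.51 to -1.27) in *Hmga2*+/+ and -1.44 (-1.57 to -1.32) in *Hmga2*-/- MEF. The genotype difference was 0.00 (-0.08 to 0.09) under Ctrl and -0.05 (-0.20 to 0.09) under TGFB1.

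*Gpc4*, the most abundant glypican, encodes glypican-4, which takes part in Wnt and FGF signalling. Its transcript (uc012hhb.1) lies at chrX:52053018-52164923 on the minus strand. *Gpc4* had 55.9 RPKM in both Ctrl libraries, 35.5 in *Hmga2*+/+ TGFB1 and 37.2 in *Hmga2*-/- TGFB1. The fall on TGFB1 was 1.58-fold in *Hmga2*+/+ and 1.501-fold in *Hmga2*-/- MEF, log2 changes of -0.66 (-0.71 to -0.60) and -0.59 (-0.64 to -0.53). The second value lies just inside the 1.5-fold limit, and with a pseudocount of 0.1 RPKM or 1 RPKM (log2 changes -0.58 and -0.57) it lies just outside.

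*Gpc2*, the glypican best known from developing neurons, was the least abundant member on average. Its transcript (uc012efl.1) lies at chr5:138273660-138279937 on the minus strand. The annotated span of *Gpc2* overlaps the gene *Gm43720* on the same strand, so reads given to *Gpc2* may in part belong to that gene. Whether the exons of the 2 genes overlap was not examined. The values were 2.38 RPKM in *Hmga2*+/+ Ctrl, 1.23 in *Hmga2*+/+ TGFB1, 1.56 in *Hmga2*-/- Ctrl and 1.13 in *Hmga2*-/- TGFB1, from 162 to 336 reads. The *Hmga2*+/+ Ctrl library was the highest of the 4. *Gpc2* fell 1.94-fold on TGFB1 in *Hmga2*+/+ MEF (log2 change -0.95, -1.23 to -0.69), and in *Hmga2*-/- MEF the log2 change was -0.46 (-0.76 to -0.16), short of the limit. The difference between the 2 log2 changes was 0.49, with a 95% counting interval of 0.10 to 0.88 from the reciprocal reads, and whether the genotypes differ was not tested.

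**Figure D2:**
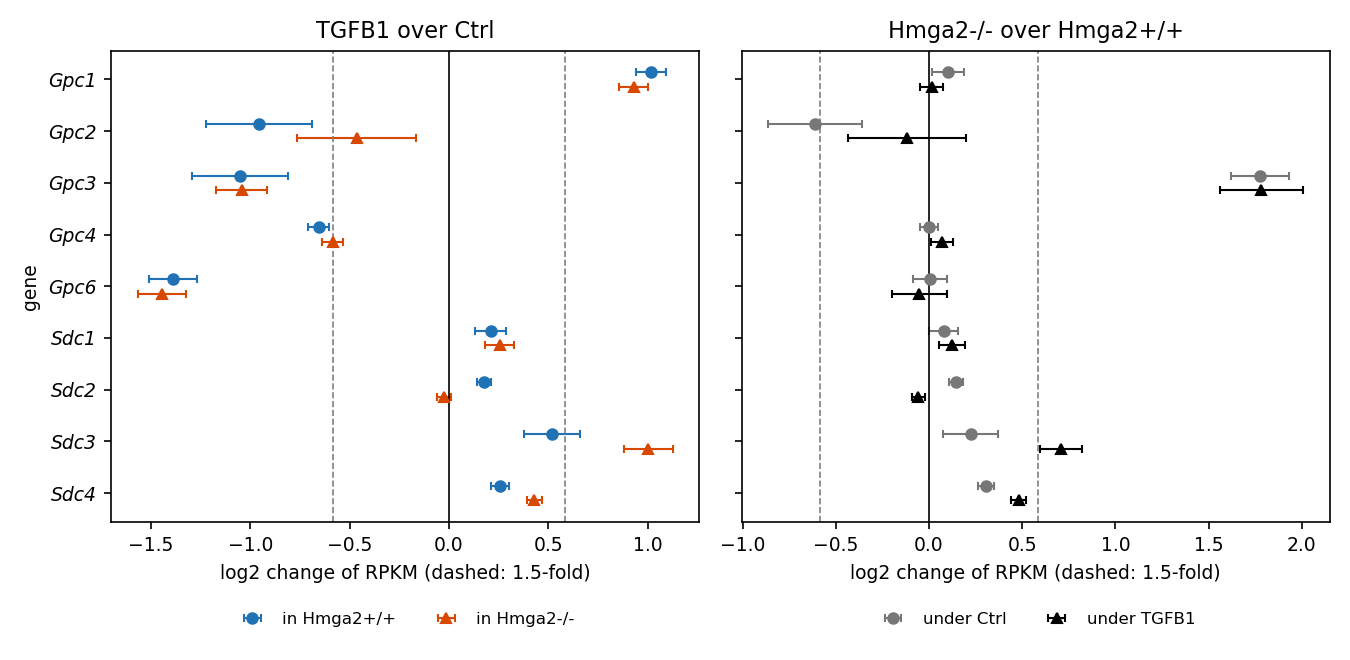
Log2 changes of RPKM for each member, with TGFB1 over Ctrl in the left panel and *Hmga2*-/- over *Hmga2*+/+ in the right panel, bars giving the exact 95% counting interval of the 2 libraries and dashed lines the 1.5-fold limit. On the left *Gpc1* lies above and *Gpc3*, *Gpc4* and *Gpc6* lie below the limit in both genotypes, and on the right *Gpc3* stands apart at 1.77 and 1.78.

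The second question is how the genotypes compare at the same treatment. Under Ctrl 1 of 9 members was at least 1.5-fold higher in *Hmga2*-/- MEF (*Gpc3*, 11.1%) and 1 was lower (*Gpc2*, 11.1%), beside 2.23% higher and 1.88% lower among the 10727 genes. Since *Gpc3* was chosen on that contrast, nothing is read from this count. Under TGFB1 2 members were higher (*Gpc3* and *Sdc3*, 22.2%) and 0 were lower, beside 3.03% and 1.95% of genes. *Gpc3* was chosen for its high value in the same *Hmga2*-/- culture, and *Sdc3* fell short of the limit with a pseudocount of 1 RPKM. Nothing is read from this count either. The 2 *Hmga2*+/+ and 2 *Hmga2*-/- libraries of the genotype comparisons are those of the TGFB1 comparisons, so the 4 comparisons are not independent. The *Gpc2* difference under Ctrl, 2.38 against 1.56 RPKM, was 1.53-fold (log2 -0.61, -0.86 to -0.36) and lies just inside the limit. It fell outside with a pseudocount of 0.1 RPKM, with a pseudocount of 1 RPKM and with libraries rescaled by the median ratio (log2 -0.58, -0.40 and -0.58).

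*Gpc3* encodes glypican-3, which binds Hedgehog ligands and takes them away from their receptor. Its transcript with the longest gene body (uc009teg.2) spans 341548 bases at chrX:52272427-52613974 on the minus strand. It had 3.46 RPKM in *Hmga2*+/+ Ctrl, 1.67 in *Hmga2*+/+ TGFB1, 11.8 in *Hmga2*-/- Ctrl and 5.75 in *Hmga2*-/- TGFB1, from 438, 216, 1511 and 738 reads. Both *Hmga2*-/- libraries were above both *Hmga2*+/+ libraries, and within each genotype the TGFB1 library was the lower. The level was 3.42-fold higher in *Hmga2*-/- MEF under Ctrl, the contrast used to choose it (log2 1.77, 1.62 to 1.93). Under TGFB1 it was 3.44-fold higher (log2 1.78, 1.56 to 2.01). The TGFB1 libraries come from the same immortalized culture of each genotype, so this value is no independent check of the choice. The fall on TGFB1 was 2.07-fold in *Hmga2*+/+ and 2.06-fold in *Hmga2*-/- MEF, and the 2 log2 changes differed by 0.01 (-0.26 to 0.27). The fall in *Hmga2*-/- MEF starts from the library used to choose *Gpc3*, so it is a description only. With a pseudocount of 1 RPKM the genotype difference was 1.53 under Ctrl and 1.34 under TGFB1 on the log2 scale. The summed neural markers were likewise higher in *Hmga2*-/- than in *Hmga2*+/+ MEF at either treatment and lower on TGFB1 in both genotypes. The summed endothelial and fibroblast markers were also higher in both *Hmga2*-/- libraries, and the endothelial sum was higher on TGFB1. *Vim* made up the largest part of the fibroblast sum. It had 957.7 and 1118.6 RPKM in *Hmga2*+/+ Ctrl and TGFB1 and 1496.9 and 1389.7 RPKM in *Hmga2*-/- Ctrl and TGFB1. Under Ctrl *Pdgfra* and *Dcn* were also higher in *Hmga2*-/- MEF, whereas *Col1a1*, *Col1a2*, *Col3a1*, *Pdgfrb* and *Thy1* were lower. The part of these marker lists in the *Gpc3* differences was not tested.

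*Gpc3* and *Gpc4* are neighbours on chromosome X, transcribed in the same direction with their starts 449051 bases apart, and only *Gpc3* passed the limit between genotypes. The *Gpc4* level differed between the genotypes by a log2 value of 0.00 (-0.05 to 0.05) under Ctrl, -0.0003 before and 0.02 after rescaling the libraries, and of 0.07 (0.01 to 0.13) under TGFB1. The promoters of the pair are shown because both genes fell on TGFB1 while only *Gpc3* passed 1.5-fold between genotypes. They are the 250 bases before the RefSeq start on the minus strand of GRCm38.p6, written 5′ to 3′, at chrX:52613975-52614224 for *Gpc3* and chrX:52164924-52165173 for *Gpc4*. Capitals mark the GC box letters GGGCGG or their reverse complement.
Gpc3: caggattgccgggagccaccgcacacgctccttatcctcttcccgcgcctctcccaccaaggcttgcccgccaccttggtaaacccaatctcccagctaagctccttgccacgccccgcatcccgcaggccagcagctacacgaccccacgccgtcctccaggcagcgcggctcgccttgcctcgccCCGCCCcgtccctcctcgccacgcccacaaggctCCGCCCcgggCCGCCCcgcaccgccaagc
Gpc4: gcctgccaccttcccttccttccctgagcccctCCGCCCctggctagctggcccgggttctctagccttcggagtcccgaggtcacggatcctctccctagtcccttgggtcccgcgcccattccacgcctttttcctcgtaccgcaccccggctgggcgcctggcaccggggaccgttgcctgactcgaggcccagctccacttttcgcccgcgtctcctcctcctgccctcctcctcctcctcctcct
Both windows are rich in G and C, with 71.6% and 25 CpG in *Gpc3* and 68.4% and 18 CpG in *Gpc4*, beside medians of 52.4% and 6 CpG over 32851 mouse promoters of this length. The GC box letters occur at 3 places in *Gpc3* and 1 in *Gpc4*, and 32.7% of all promoters hold at least 1. They also occur at 3 places in each of *Gpc2*, *Sdc1* and *Sdc3* and at 4 in *Sdc4*, so the number in *Gpc3* does not set it apart. Neither window holds CAGAC, the short SMAD-binding letters found on either strand in 42.2% of promoters, or TATAAA, found in 12.4%. These are matches of letters and not measured binding.

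A set of 7 protein-coding genes had a mean of at least 1 RPKM and starts within 1 megabase of the *Gpc3* start. The set was chosen after the *Gpc3* values were seen, and *Gpc3* alone in it passed 1.5-fold between genotypes. Among the 10727 genes 2.23% were higher and 1.88% lower under Ctrl, and 3.03% and 1.95% under TGFB1. Since *Gpc3* was chosen on the genotype contrast under Ctrl and few genes passed at all, nothing is read from this count. *Hs6st2*, a heparan sulfate sulfotransferase gene that starts 932372 bases away on the side of *Gpc4*, had 13.7 RPKM in *Hmga2*+/+ Ctrl, 16.2 in *Hmga2*+/+ TGFB1, 16.1 in *Hmga2*-/- Ctrl and 21.4 in *Hmga2*-/- TGFB1. *Phf6*, the nearest of the set on the other side of *Gpc3*, had 16.5, 15.6, 15.4 and 16.9 RPKM in the same order. The log2 genotype differences of the 6 genes other than *Gpc3* lay between -0.30 for *Fam122b* under TGFB1 and 0.40 for *Hs6st2* under TGFB1.

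**Figure D3:**
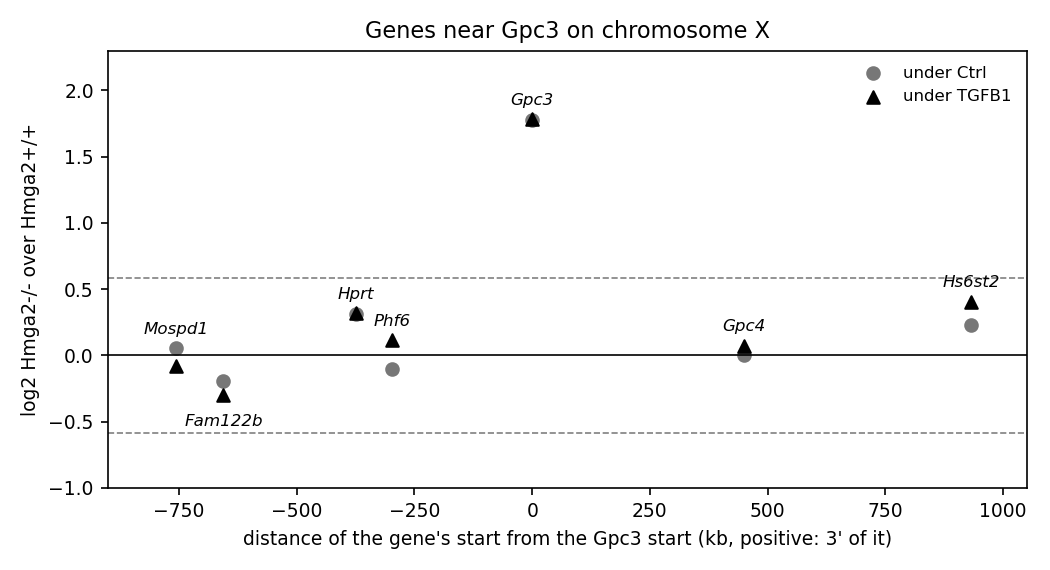
Log2 difference of RPKM between *Hmga2*-/- and *Hmga2*+/+ MEF for 7 protein-coding genes near *Gpc3*, plotted against the distance of each start from the *Gpc3* start in kb, with circles for Ctrl, triangles for TGFB1 and dashed lines at 1.5-fold. *Gpc3* lies at 1.77 and 1.78, and the other genes lie between -0.30 and 0.40.

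By its pattern over the 4 libraries, *Gpc3* was closest to *Dkk3*, *Cd55* and *Rcan2* among 10257 other protein-coding genes. Likeness was the Euclidean distance between log2 RPKM values centred on each gene's mean of 4 libraries, which was 0.29 for *Dkk3*, 0.30 for *Cd55* and 0.72 for *Rcan2*. *Dkk3*, a secreted member of the Dickkopf family, had 5.27 RPKM in *Hmga2*+/+ Ctrl, 2.24 in *Hmga2*+/+ TGFB1, 13.6 in *Hmga2*-/- Ctrl and 7.34 in *Hmga2*-/- TGFB1. *Cd55*, a complement regulator held by the same kind of lipid anchor as glypicans, had 12.7, 5.49, 37.9 and 15.7 RPKM in the same order. *Rcan2*, a calcineurin regulator, had 9.86, 4.29, 25.4 and 8.53 RPKM. The nearest member to *Gpc3* was *Gpc4*, at a distance of 1.79, and the closest pair of members was *Sdc1* and *Sdc2*, at 0.21. Distances over 4 libraries are a description only.

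Among the syndecans only *Sdc3* passed 1.5-fold in any of the 4 comparisons. *Sdc3* encodes syndecan-3, known from neural tissue and muscle, and its transcript (uc008uzr.1) lies at chr4:130792537-130826318 on the plus strand. It had 2.48 RPKM in *Hmga2*+/+ Ctrl, 3.56 in *Hmga2*+/+ TGFB1, 2.90 in *Hmga2*-/- Ctrl and 5.81 in *Hmga2*-/- TGFB1, the last being the highest of the 4. The change on TGFB1 was 1.43-fold in *Hmga2*+/+ MEF (log2 0.52, 0.38 to 0.66), just short of the limit, and 2.004-fold in *Hmga2*-/- MEF (log2 1.00, 0.88 to 1.13). The log2 changes differed by 0.48 (counting interval 0.30 to 0.67), and whether the genotypes differ was not tested. Between genotypes *Sdc3* differed by a log2 value of 0.22 (0.08 to 0.37) under Ctrl and was 1.63-fold higher in *Hmga2*-/- MEF under TGFB1 (log2 0.71, 0.59 to 0.82). With a pseudocount of 1 RPKM the latter was 0.58, just outside the limit. Its promoter is shown as that of the syndecan with the largest change on TGFB1. It is the 250 bases before the start on the plus strand at chr4:130792287-130792536, from the same RefSeq table and build, with GGGCGG and CAGAC or their reverse complements in capitals.
Sdc3: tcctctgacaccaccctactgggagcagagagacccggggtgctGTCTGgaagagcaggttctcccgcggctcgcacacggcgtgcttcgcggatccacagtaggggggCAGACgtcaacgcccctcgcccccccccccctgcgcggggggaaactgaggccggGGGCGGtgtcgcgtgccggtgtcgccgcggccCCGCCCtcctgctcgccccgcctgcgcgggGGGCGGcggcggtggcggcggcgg
This window holds the CAGAC letters at 2 places and the GC box letters at 3, has 76.4% G and C and 32 CpG, and holds no TATAAA. Of the 9 members 6 have an entry in the promoter table, and *Sdc1* (1 place) is the other member of these 6 that holds CAGAC.

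*Sdc4* encodes syndecan-4, the focal adhesion syndecan, at chr2:164424247-164443188 on the minus strand (transcript uc008nuq.1). *Sdc4* had 54.7 RPKM in *Hmga2*+/+ Ctrl, 65.3 in *Hmga2*+/+ TGFB1, 67.7 in *Hmga2*-/- Ctrl and 91.2 in *Hmga2*-/- TGFB1. Each of the 4 comparisons pointed upward without reaching 1.5-fold, and the *Hmga2*-/- TGFB1 library stood above the rest. The log2 change on TGFB1 was 0.26 (0.21 to 0.30) in *Hmga2*+/+ and 0.43 (0.39 to 0.47) in *Hmga2*-/- MEF, and the genotype difference was 0.31 (0.26 to 0.35) under Ctrl and 0.48 (0.44 to 0.52) under TGFB1. The 2 TGFB1 changes differed by 0.17 (0.12 to 0.23).

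*Sdc2* encodes syndecan-2, the syndecan typical of mesenchymal cells, at chr15:32920723-33034721 on the plus strand (transcript uc007vkx.1), and it varied least of the 9 members, by 1.13-fold between its lowest and highest library. Its levels were 63.6 RPKM in *Hmga2*+/+ Ctrl, 71.9 in *Hmga2*+/+ TGFB1, 70.3 in *Hmga2*-/- Ctrl and 69.1 in *Hmga2*-/- TGFB1. The *Hmga2*+/+ Ctrl library was the lowest and the other 3 were close together. On TGFB1 the log2 change was 0.18 (0.14 to 0.21) in *Hmga2*+/+ and -0.03 (-0.06 to 0.01) in *Hmga2*-/- MEF. *Sdc1*, which encodes syndecan-1, best known from epithelial and plasma cells, lies at chr12:8771396-8793687 on the plus strand (transcript uc007nac.1). *Sdc1* had 14.99 RPKM in *Hmga2*+/+ Ctrl, 17.3 in *Hmga2*+/+ TGFB1, 15.8 in *Hmga2*-/- Ctrl and 18.9 in *Hmga2*-/- TGFB1. Both TGFB1 libraries were above both Ctrl libraries by a small margin, with log2 changes of 0.21 (0.13 to 0.29) and 0.26 (0.18 to 0.33).

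With these changes the make-up of the glypican transcripts shifted on TGFB1. Summed over the 5 glypicans, RPKM was 77.7 in *Hmga2*+/+ Ctrl, 61.9 in *Hmga2*+/+ TGFB1, 86.0 in *Hmga2*-/- Ctrl and 67.8 in *Hmga2*-/- TGFB1. *Gpc4* made up 72.0% and 57.3% of the sum in *Hmga2*+/+ Ctrl and TGFB1, and 65.0% and 54.9% in *Hmga2*-/- Ctrl and TGFB1. *Gpc1* went from 13.7% to 34.7% and from 13.2% to 32.0%. *Gpc3* took 4.46% and 2.70% of the sum in *Hmga2*+/+ Ctrl and TGFB1 and 13.8% and 8.49% in *Hmga2*-/- Ctrl and TGFB1. *Gpc4* and *Gpc1* together made up most of the glypican RPKM in each library. The 4 syndecans summed to 135.8 and 158.1 RPKM in *Hmga2*+/+ Ctrl and TGFB1 and to 156.7 and 184.9 RPKM in *Hmga2*-/- Ctrl and TGFB1. *Sdc2* and *Sdc4* held 46.8% and 40.3% of the syndecan sum in *Hmga2*+/+ Ctrl, and 37.3% and 49.3% in *Hmga2*-/- TGFB1, so that *Sdc4* overtook *Sdc2* in that library. The ratio of summed syndecan to summed glypican RPKM was 1.75 in *Hmga2*+/+ Ctrl and 2.56 in *Hmga2*+/+ TGFB1, and 1.82 in *Hmga2*-/- Ctrl and 2.73 in *Hmga2*-/- TGFB1.

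**Figure D4:**
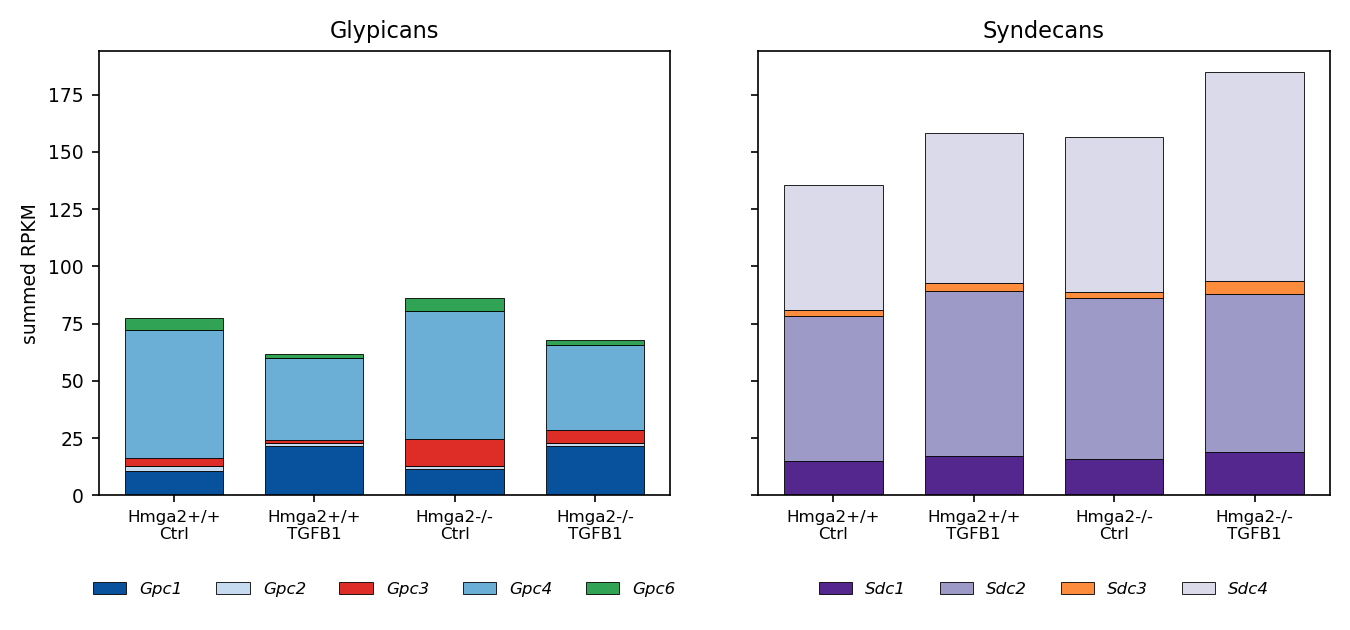
Summed RPKM of the 5 glypicans (left) and 4 syndecans (right) in each library, stacked by gene on an axis that starts at 0. The glypican sums are lower and the syndecan sums higher in both TGFB1 libraries, and *Gpc1* takes 34.7% and 32.0% of the glypican sum there.

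Several members have more than 1 transcript in the table, and these share exons and reads. The second *Gpc3* transcript, which begins at the same start and ends earlier, had 2.95, 1.52, 10.6 and 4.93 RPKM in *Hmga2*+/+ Ctrl, *Hmga2*+/+ TGFB1, *Hmga2*-/- Ctrl and *Hmga2*-/- TGFB1, and followed the longer one. The *Gpc6* transcript of 701902 bases also fell on TGFB1, by log2 changes of -1.43 and -1.67 in *Hmga2*+/+ and *Hmga2*-/- MEF. The short *Sdc3* transcript, of 10315 bases, had 1.59, 2.03, 1.54 and 3.23 RPKM in the same order of libraries, and its log2 changes on TGFB1 were 0.35 and 1.07. The shortest *Gpc2* transcript showed log2 changes of -1.12 and -0.74 on TGFB1, so that in *Hmga2*-/- MEF it lay beyond the limit that the longest did not reach. A feature of 20 exonic bases inside *Gpc4* had at most 1 read per library and shows nothing about the gene.

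The enzymes that build and edit the chains, and the proteins that bind the cores, were taken from 7 lists of 69 genes, of which 51 had a mean of at least 1 RPKM. On TGFB1 10 of the 51 rose (19.6%) and 7 fell (13.7%) in *Hmga2*+/+ MEF, beside 11.6% and 15.8% of all genes. With a pseudocount of 1 RPKM these counts were 7 and 4. In *Hmga2*-/- MEF 13 rose (25.5%) and 5 fell (9.8%), beside 13.4% and 14.2%. With the same pseudocount these were 11 and 3. Between genotypes 0 of 51 passed 1.5-fold under Ctrl, where 2.23% of all genes were higher and 1.88% lower. Under TGFB1 1 of 51 (*Sulf2*) was higher in *Hmga2*-/- MEF and 0 were lower, beside 3.03% and 1.95% of all genes. The single lists are small, and the shares of all genes on TGFB1 given above stand beside each list count that follows. Among the 7 genes of the linkage region that joins each chain to its core, 0 rose and 1 fell in *Hmga2*+/+ MEF. In *Hmga2*-/- MEF 2 of them rose and 0 fell. *Xylt2*, a xylosyltransferase that starts the chain, had 4.14 RPKM under Ctrl and 2.58 RPKM under TGFB1 in *Hmga2*+/+ MEF, beside 2.95 and 2.09 RPKM in *Hmga2*-/- MEF. In the sentences on list genes that follow, the first change is that in *Hmga2*+/+ and the second that in *Hmga2*-/- MEF. The galactosyltransferase gene *B4galt7* went from 1.77 to 2.07 and from 1.47 to 2.56 RPKM, and *B3galt6* from 1.85 to 2.51 and from 1.70 to 2.73 RPKM, each past the limit in *Hmga2*-/- MEF alone.

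Of the 4 expressed genes of heparan sulfate polymerization, 1 rose in *Hmga2*+/+ and 2 rose in *Hmga2*-/- MEF, and 0 fell. Among all genes 11.6% rose and 15.8% fell in *Hmga2*+/+ MEF, and 13.4% and 14.2% in *Hmga2*-/- MEF. *Ext1*, a subunit of the chain polymerase, rose from 21.3 to 46.2 and from 24.8 to 54.2 RPKM, log2 changes of 1.12 in both. Its partner *Ext2* went from 12.7 to 8.66 and from 12.1 to 9.15 RPKM, short of the limit downward. *Extl3*, which commits the chain to heparan sulfate, went from 7.62 to 10.2 and from 6.99 to 11.0 RPKM. Among 9 expressed genes that modify the chain, 1 rose and 1 fell in each genotype. *Glce*, the epimerase that makes iduronic acid, rose from 7.18 to 13.3 and from 6.75 to 14.2 RPKM. *Papss1*, which makes the sulfate donor, fell from 13.3 to 7.32 and from 12.2 to 7.03 RPKM.

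Chains of the chondroitin and dermatan sulfate type are carried by some syndecans too. Of 12 expressed genes for them, 2 rose and 3 fell in *Hmga2*+/+ and 3 rose and 2 fell in *Hmga2*-/- MEF. The chondroitin sulfotransferase gene *Chst11* rose from 1.10 to 5.00 and from 1.01 to 7.10 RPKM, log2 changes of 2.19 and 2.82, and *Ust*, a uronyl sulfotransferase gene, rose from 2.32 to 4.57 and from 2.92 to 5.57 RPKM. *Csgalnact1*, which starts the chondroitin chain, fell from 2.91 to 1.74 and from 3.16 to 2.06 RPKM, and the sulfotransferase gene *Chst12* fell from 6.71 to 3.94 and from 5.94 to 3.85 RPKM. Opposite movements thus stood side by side within this list.

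Among 7 expressed genes that act on the finished proteoglycans outside the cell or on the enzymes that shed them, 2 rose and 1 fell in *Hmga2*+/+ and 3 rose and 1 fell in *Hmga2*-/- MEF. *Sulf1*, a sulfatase that trims heparan sulfate at the cell surface, rose from 39.3 to 88.8 and from 37.6 to 112.0 RPKM. Its relative *Sulf2* went from 8.95 to 10.9 and from 9.85 to 16.9 RPKM, a rise past the limit in *Hmga2*-/- MEF alone. *Furin*, a convertase that cleaves glypican cores, rose from 7.75 to 11.8 and from 6.78 to 14.4 RPKM. *Mmp14*, a membrane metalloproteinase that can shed syndecan-1, fell from 193.0 to 121.2 and from 210.9 to 131.2 RPKM.

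Of 8 expressed cytoplasmic partners of syndecans, 2 rose in *Hmga2*+/+ and 1 rose in *Hmga2*-/- MEF, and 0 fell. *Prkca*, the kinase that syndecan-4 activates, rose from 7.12 to 13.1 and from 8.30 to 13.8 RPKM, and *Tiam1*, a Rac activator that binds the tail, went from 5.92 to 9.05 and from 5.92 to 8.55 RPKM. *Sdcbp*, which encodes syntenin, stayed between 25.7 and 27.4 RPKM. Of 4 surface proteins listed as part-time carriers of such chains, 2 rose and 1 fell in *Hmga2*+/+ and 1 rose and 1 fell in *Hmga2*-/- MEF. *Tgfbr3* (betaglycan), a TGF-beta coreceptor, fell from 38.2 to 17.6 and from 38.1 to 13.7 RPKM. *Cd44*, the hyaluronan receptor, rose from 13.4 to 59.6 and from 18.7 to 86.7 RPKM, and *Nrp2* (neuropilin-2) went from 24.8 to 37.5 and from 23.4 to 30.5 RPKM.

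**Figure D5:**
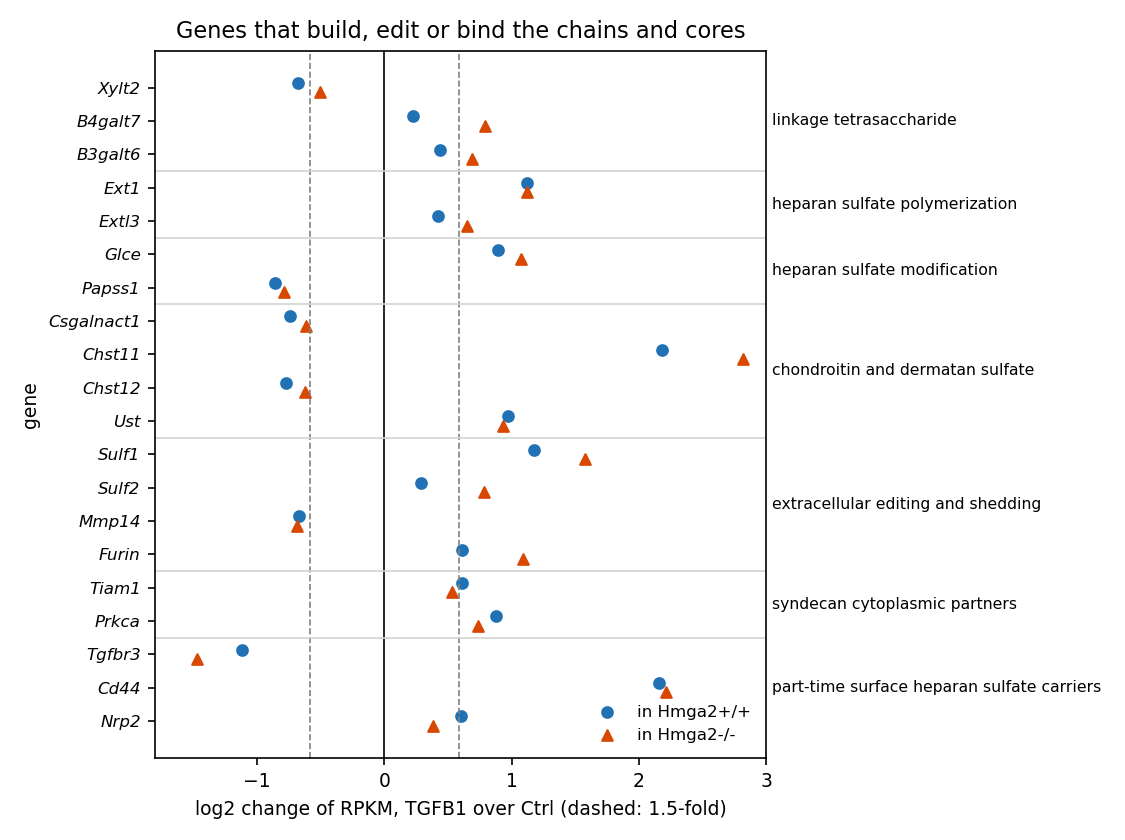
Log2 change of RPKM on TGFB1 in *Hmga2*+/+ (circles) and *Hmga2*-/- MEF (triangles) for the 20 named genes of the 7 lists, with dashed lines at 1.5-fold and 1 library per condition. *Ext1*, *Glce*, *Chst11*, *Ust*, *Sulf1*, *Furin*, *Prkca* and *Cd44* lie above and *Papss1*, *Csgalnact1*, *Chst12*, *Mmp14* and *Tgfbr3* lie below the limit in both genotypes.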

How the data were processed

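Total RNA of 4 MEF cultures was sequenced with a stranded kit as single-end reads. Per the submitters' notes and the paper, reads were trimmed (Trimmomatic), aligned to mm10 (HISAT2 2.1.0) and counted by HOMER on the annotated strand of UCSC known genes. The authors deposited RPKM for 63759 transcripts together with the length of each transcript. The command in the file header counts exons, whereas the paper's methods name genes. The paper mentions duplicates of an experiment, and whether they were pooled is not given in the sources used here. The submitters' notes also list hg19, with a use not given in the sources used here.

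A transcript took the name of the GENCODE M21 gene that covered 50% or more of it on the same strand (57708 transcripts, 90.5%), and the longest gene body was kept for each gene. Values of 0 RPKM were set to 0.001, as in the study. Library depth was derived as the number that turns low RPKM values into whole reads (within 0.1 of a read for 100% of low values tested). Reads then gave 95% exact intervals (Clopper-Pearson for ratios, Poisson for levels) for counting error only, and for the difference of 2 changes an interval from the reciprocal reads. With 1 library per condition no test was run. Simulated data were used to test the derived depth and reads, the interval of a ratio of 2 libraries and the 1.5-fold limit.

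The members and lists were chosen with earlier results of these data known. Named are the members, *Gpc5*, *Hmga2* and *Smad7*, and a further gene of the rule is not reported here. Of each list, genes past 1.5-fold in any comparison and with a mean of 1 RPKM or more were named, at most 4 by the largest log2 change, and the 3 genes closest to *Gpc3* in pattern. *Ext2*, *Sdcbp* and the neighbours of *Gpc3* were named after their values were seen. Promoters came from a RefSeq table (GRCm38.p6), in which 6 of 9 members were found. Python 3.11.15, numpy 2.4.6, pandas 2.3.3, scipy 1.17.1 and matplotlib 3.10.9 were used. Alternatives were 2 pseudocounts, rescaled libraries, 2 other choices of transcript and a 2-fold limit.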

Additional observations from a re-analysis of the deposited data

Results flagged for a closer look

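*Sdc2* was the member whose changes pointed opposite ways by more than counting error in a pair of comparisons. Its log2 change on TGFB1 was 0.18 in *Hmga2*+/+ MEF and -0.0261 in *Hmga2*-/- MEF (counting interval -0.06 to 0.01), a difference of -0.20 (-0.25 to -0.15). By the same 4 values its genotype difference was 0.15 (0.11 to 0.18) under Ctrl and -0.0581 (-0.09 to -0.02) under TGFB1. None of these reached 1.5-fold, and the difference between the genotypes was not tested.

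For *Gpc4* the genotype difference changed sign, from -0.0003 under Ctrl to 0.0706 under TGFB1 on the log2 scale, and for *Gpc6* from 0.0049 to -0.0513. Counting intervals included 0 in each of these except *Gpc4* under TGFB1, and the differences between treatments were not tested. After median-ratio rescaling the *Gpc4* values were 0.02 and 0.04, so its change of sign was not kept.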

How the results depend on the processing

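With 1 library per condition the spread between cultures is unknown, and no paired analysis was possible because each condition has 1 library. The lowest member level, 1.13 RPKM for *Gpc2*, rested on 162 reads. Of 180 log2 changes of members under 5 alternatives, 171 stayed within their counting interval, 9 moved further and 0 changes past 1.5-fold changed sign. Of 45 differences between genotypes in the TGFB1 change, 44 stayed within it; that of *Sdc2* became -0.26 with rescaled libraries. Rescaling by the median ratio shifted all changes of a comparison by at most 0.04 on the log2 scale.

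The number of members past 1.5-fold was 5 on TGFB1 in *Hmga2*+/+, 5 in *Hmga2*-/-, and 2 between genotypes under Ctrl and 2 under TGFB1. At 2-fold it was 3, 3, 1 and 1. On TGFB1 in *Hmga2*-/- MEF it was 4 (2 higher, 2 lower) with a pseudocount of 1 RPKM and with one of 0.1 RPKM, each time without *Gpc4*. Under Ctrl it was 1 with a pseudocount of 1 RPKM, with one of 0.1 RPKM and with rescaled libraries, each time without *Gpc2*. Under TGFB1 it was 1 with a pseudocount of 1 RPKM, without *Sdc3*. Of the 51 list genes, 17 changed on TGFB1 in *Hmga2*+/+ and 18 in *Hmga2*-/- MEF. Alternatives for these were chosen after seeing the data. With a pseudocount of 1 RPKM the first number was 11 (7 higher, 4 lower) and the second 14 (11 higher, 3 lower). At 2-fold they were 5 and 7. Between genotypes the list count was 1 instead of 0 under Ctrl with the transcript of highest mean RPKM, and 0 instead of 1 under TGFB1 at 2-fold. The cause of these moves was not tested. The summed RPKM of either family stayed within 1.5 times its value under 3 alternatives.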
